A study of Mus musculus with 204 samples.

Results

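Cholinergic neurons of the mouse colon were compared by whether they also held Slc17a6, the transcript of the vesicular glutamate transporter VGLUT2. Members were chosen from values of a table of 204 picked cells, in log2(RPKM + 1), where RPKM gives the reads of a gene per kilobase of its length for each 1000000 reads of the cell. A cell counted as a neuron where at least 3 of Elavl3, Elavl4, Snap25, Stmn2 and Syt1 stood at 2 or more, and as cholinergic where Chat also stood at 2 or more. Of 149 neurons, 42 had Chat below 2 and the others were cholinergic. Slc17a6 at 2 or more put 81 cholinergic neurons in the class with Slc17a6, and Slc17a6 below 1 put 20 in the class without it. These 81 and 20 cells, of 204 in all, are the members, and 6 cholinergic neurons between the limits were set aside.

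Chat makes acetylcholine, the main excitatory transmitter of enteric neurons, from choline and acetyl-CoA. VGLUT2 pumps glutamate into synaptic vesicles, so a neuron with both transcripts holds the means to load both transmitters. In the myenteric plexus, which lies between the outer muscle layers of the gut wall, cholinergic neurons include motor neurons that contract muscle, interneurons, and sensory neurons with their cell bodies in the gut wall. Tac1, the substance P precursor, and Calb2, calretinin, are classical marks of excitatory motor neurons, while the medium neurofilament chain is often used to mark intrinsic sensory neurons in the mouse.

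VGLUT2-tdTomato mice, in which a red protein reports Slc17a6, gave the cells from their distal colon. Muscle layers were dissociated, kept in culture overnight, and red cells were taken 1 at a time by hand, so cells of both classes had passed a red-fluorescence pick and a night in culture. The labels give no treatment, age, animal or culture, and whether a red cell still made Slc17a6 when it was picked or had only done so earlier was not tested. The cells sat on 3 plates. Plate 1 held 40 members with Slc17a6 and 1 without, plate 2 held 16 and 10, and plate 3 held 25 and 9, so classes were compared on plates 2 and 3 only.

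Some cells were nearly the same. Over 12018 genes, 7 pairs of the 204 cells had Pearson correlations from 0.943 to 0.986, the next pair had 0.898 and the median of all pairs was 0.444. In 5 of the 7 pairs both cells were members, all with Slc17a6. They are cells 12 and 59 and cells 20 and 50 of plate 1, cells 5 and 36 and cells 16 and 17 of plate 3, and cell 19 of plate 2 with cell 57 of plate 3. Numbers of cells, SDs and intervals below may therefore count a cell more than once, and plates 2 and 3 may share 1. How the pairs arose was not tested. With the second cell of each pair on 1 plate and both cells of the pair across plates left out, 15 and 22 cells with Slc17a6 remained on plates 2 and 3, and the class without Slc17a6 was not affected.

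Each plate counted as 1 sample, cells are not replicates, and no test or p-value was computed. A gene is called higher or lower below where the mean log2(RPKM + 1) of cells with Slc17a6 differed by at least 1 from that of cells without, in the same direction on both plates. Each plate held cells with Xist and no Y-linked transcript and cells with the reverse, and so cells of at least 1 female and 1 male mouse. On plate 2, 7 of 16 cells with Slc17a6 and 7 of 10 without had Y-linked transcripts only. On plate 3 these were 18 of 25 and 7 of 9. Among the Y-only cells alone, the 12 genes named below for the largest differences in the higher direction were all still called. Of the 12 named in the lower direction, Pdpn, Cd44, Tnfrsf1a, Smpdl3a and Ehd2 were not, and 47.4% of all higher calls were also made there. The 12 genes of each direction were chosen for size in cells that include these, so kept calls are partly built in.

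Reads per member cell ran from 511955 to 13735839. Their medians were close between classes, with 3934096 reads with Slc17a6 and 3864430 without on plate 2, and 5790406 and 5586566 on plate 3. The number of genes at 2 or more was larger in cells with Slc17a6, with medians of 9626 against 8868 on plate 2 and 9535 against 8885 on plate 3. Mitochondrial genes took a median of 2.89% and 3.48% of reads on plate 2, and 3.13% and 2.46% on plate 3. Cell 14 of plate 3, without Slc17a6, stood apart with 49.3% mitochondrial reads and 2424 genes at 2 or more. On plate 2, cells 5 and 6 without Slc17a6 had 20.4% and 15.5% mitochondrial reads, and cell 59 with Slc17a6 had 26.9%.

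Slc17a6 itself chose the classes and is given only as a description. Its lowest, median and highest values in the class with it were 2.11, 4.36 and 7.01 on plate 1, 2.65, 3.67 and 5.52 on plate 2, and 2.10, 3.82 and 5.13 on plate 3. In the class without it, 12 of 20 cells were listed at 0, and the cells just inside the limit stood at 0.74, 0.72 and 0.72. The cells just outside it stood between 1.30 and 1.82, and the lowest cells of the other class at 2.10, 2.11 and 2.19. Chat overlapped widely. Its means with and without Slc17a6 were 5.31 ± 1.37 and 5.59 ± 0.82 (SD over 16 and 10 cells) on plate 2, and 5.20 ± 0.74 and 5.76 ± 1.95 (SD over 25 and 9 cells) on plate 3. Chat lies on chromosome 14 from 32408203 to 32465989 in the mm10 build, and Slc17a6 on chromosome 7 from 51622006 to 51671119.

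**Figure D1:**
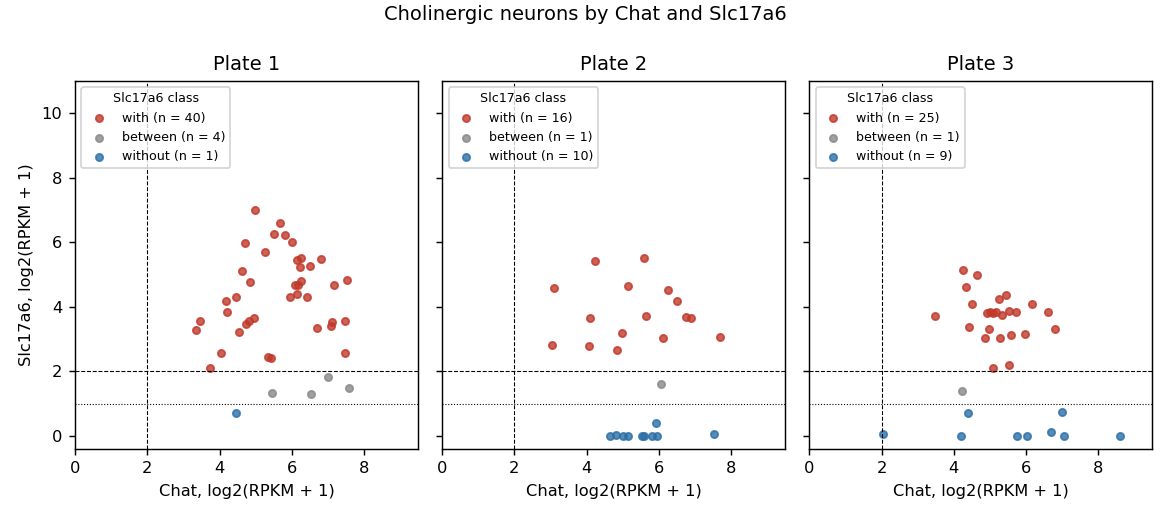
Chat (horizontal axis) against Slc17a6 (vertical axis), both in log2(RPKM + 1), for the cholinergic neurons, 1 panel per plate and 1 point per cell. Dashed lines mark 2 and the dotted line marks 1. The 20 cells without Slc17a6 spread over much of the Chat range of the 81 cells with it, and plate 1 held only 1 of them.

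Other cholinergic genes, which the rule did not use, were found in most members of both classes. Slc18a3, the vesicular acetylcholine transporter, reached at least 2 in every member of both classes. Its lowest, median and highest values on plate 2 were 5.43, 6.98 and 9.80 with Slc17a6 and 2.08, 6.71 and 9.12 without. On plate 3 they were 4.03, 6.95 and 8.14 against 4.98, 6.95 and 8.63. The ranges overlapped and the mean differences had opposite signs on the plates (0.91 and -0.30). Slc18a3 lies inside the first part of the Chat locus on the same strand, so that reads of the 2 genes may be shared. Slc5a7, the choline transporter of nerve endings, differed by 0.93 and 0.67 and was not called. It reached 2 in every cell with Slc17a6 on plates 2 and 3, but in 8 of 10 and 8 of 9 cells without. In neurons with Chat below 2, the means of Slc18a3 were 1.76 and 0.97 and those of Slc5a7 were 0.47 and 0.85 on plates 2 and 3.

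Every member carried the list of 13 pan-neuronal genes, but that list includes the genes that chose the neurons, so this was in part built in. A list of another cell type, from smooth muscle to epithelium, was carried by 4 of 16 cells with Slc17a6 and 4 of 10 without on plate 2, and by 6 of 25 and 2 of 9 on plate 3. For smooth muscle, the summed level of its 9 genes ran from 2.40 to 11.09 and from 2.27 to 10.07 on plate 2, and from 2.86 to 9.87 and from 2.82 to 13.07 on plate 3. Its counts of carriers were 4 and 3, then 6 and 1. No member carried the list of 8 genes of extrinsic sensory neurons, those of the spinal and vagal ganglia. Its genes Mrgprd and Tlx3 were at 0 in every member of plates 2 and 3, but the list was not silent. Medians of its summed level were 2.27 with Slc17a6 and 3.16 without on plate 2, and 4.23 and 2.65 on plate 3. Avil, a gene of that list, was tested and differed by 0.0 and 1.02.

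Of 11750 genes at 2 or more in at least 20% of members on each plate, 340 were higher in cells with Slc17a6, which is 2.89% of the genes tested, and 29 were lower, which is 0.247%. The differences were not centred on 0. Their median over all genes tested was 0.32 on plate 2 and 0.21 on plate 3, beside the larger number of genes found in cells with Slc17a6, and the part of that number in the counts was not tested. With these medians subtracted, 1.31% of the genes tested were higher and 0.74% lower. Without cells above 10% mitochondrial reads, the counts were 224 and 62 and the medians 0.15 and 0.04. Among the 340, 189 were also called higher there. Without the cells that carried a list of a non-neuronal type, 1.66% of 11779 genes were higher and 0.959% lower. With each near-identical pair counted once, 352 genes were higher and 30 lower, and 292 of the 340 were among them.

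**Figure D2:**
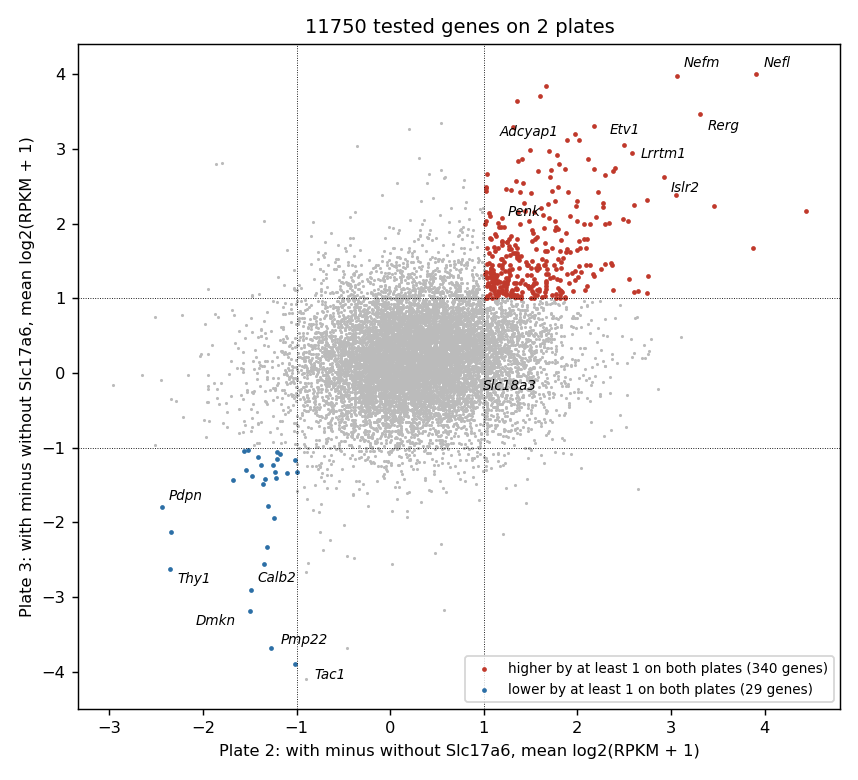
Difference of mean log2(RPKM + 1), cells with minus cells without Slc17a6, on plate 2 (horizontal axis) and plate 3 (vertical axis), 1 point per gene tested. Red points are the 340 genes higher and blue points the 29 genes lower by at least 1 on both plates, and dotted lines mark a difference of 1. Nefl, Nefm and Rerg lie at the upper right, and Tac1 falls just outside the limit on plate 2.

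The neurofilament genes were among the most different. Nefl and Nefm encode the light and medium chains of the filaments that fill and widen axons. Nefl had lowest, median and highest values of 1.85, 8.50 and 10.72 with Slc17a6 and 0.45, 3.64 and 7.63 without on plate 2. On plate 3 these were 0.60, 9.04 and 10.50 against 0.58, 4.48 and 9.58. Most cells with Slc17a6 were high and cells without it were spread from low to high, so the classes overlapped on both plates. The means differed by 3.91 on plate 2 (7.68 ± 2.75 against 3.77 ± 2.59, SD over 16 and 10 cells) and by 4.00 on plate 3 (8.30 ± 2.43 against 4.30 ± 3.77, SD over 25 and 9 cells). Neurons with Chat below 2 also held Nefl, with means of 5.57 and 4.28.

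Nefl stood at 2 or more in 38 of 41 cells with Slc17a6 on these plates (92.7%, exact Clopper-Pearson 95% interval 80.1 to 98.5%) and in 11 of 19 without (57.9%, interval 33.5 to 79.7%). With each near-identical pair counted once, the first share was 34 of 37 (91.9%, interval 78.1 to 98.3%). The intervals cover counting of cells only. Nefm differed by 3.06 and 3.98, and reached 6 or more in 11 of 16 and 23 of 25 cells with Slc17a6 but in 3 of 10 and 3 of 9 cells without. Nefh, the heavy chain, did not follow, with differences of 0.35 and -0.43. Ina, another intermediate filament of neurons, differed by 1.07 and -0.15. In the annotation Nefl (chromosome 14, 68083863 to 68089095, plus strand) lies inside the span of Nefm (68082590 to 68124846, minus strand). The strand setting of the counting is not given in the sources used here, so reads of their overlap cannot be told apart.

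The other genes with the largest differences in this direction were a mixed group. Rerg, a small GTPase related to Ras, had lowest, median and highest values of 0, 6.40 and 8.25 with Slc17a6 against 0, 1.47 and 6.54 without on plate 2, and of 0.09, 6.23 and 8.29 against 0.09, 0.48 and 6.21 on plate 3. Both classes reached down to about 0, while the medians were far apart. The mean differences were 3.31 and 3.47. Etv1, an ETS transcription factor, had means of 4.27 ± 2.35 against 1.77 ± 2.28 on plate 2 and 4.68 ± 1.98 against 1.63 ± 2.42 on plate 3. Neurons with Chat below 2 also held it, with means of 5.26 and 4.63.

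Islr2, Lrrtm1 and Klhl1 were low in neurons with Chat below 2. Islr2, a leucine-rich membrane protein of axons, differed by 2.92 and 2.62. Lrrtm1, a postsynaptic organiser of excitatory synapses, differed by 2.58 and 2.95. Klhl1, an actin-binding protein of neurons, differed by 2.40 and 2.74. In neurons with Chat below 2 their means on the plates were 0.62 and 0.53 for Islr2, 0.64 and 0.31 for Lrrtm1, and 0.28 and 0.17 for Klhl1. Islr2 shares part of its span with Islr on the same strand, which was also higher (1.62 and 1.53), and Lrrtm1 lies within Ctnna2 on the other strand, so shared reads cannot be set apart.

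Bdkrb2, the bradykinin B2 receptor, differed by 2.60 and 2.25. Kctd12, an auxiliary subunit of GABA-B receptors, had lowest, median and highest values of 0.09, 3.06 and 5.87 against 0, 0.13 and 5.02 on plate 2, and of 0.98, 5.06 and 6.62 against 0, 1.74 and 4.67 on plate 3. Its classes overlapped, with 15 of 16 and 22 of 25 cells with Slc17a6 at 2 or more and 2 of 10 and 4 of 9 without. The row of the microRNA gene Mir5130 differed by 2.74 and 2.31, but its 84 bases lie inside Kctd12 on the same strand, so its reads may be those of Kctd12, and it was listed at 0 in every plate 1 member. Fam89a differed by 3.05 and 2.38.

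Ano5, a membrane protein of the anoctamin family, differed by 2.38 and 2.71. Its lowest, median and highest values were 0, 2.82 and 5.78 with Slc17a6 and 0, 0 and 4.10 without on plate 2, and 0.12, 4.46 and 7.27 against 0.04, 1.39 and 3.84 on plate 3. On plate 2, 11 of 16 cells with Slc17a6 and 1 of 10 without reached 2. Ano5 (chromosome 7, 51511029 to 51598709, plus strand) ends 23297 bases before Slc17a6 starts, on the same strand. All 12 genes named in this direction kept their call with any 1 of the 60 member cells of plates 2 and 3 left out, and with each near-identical pair counted once. They were chosen for the largest differences in these same cells, so that outcome is largely built in.

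**Figure D3:**
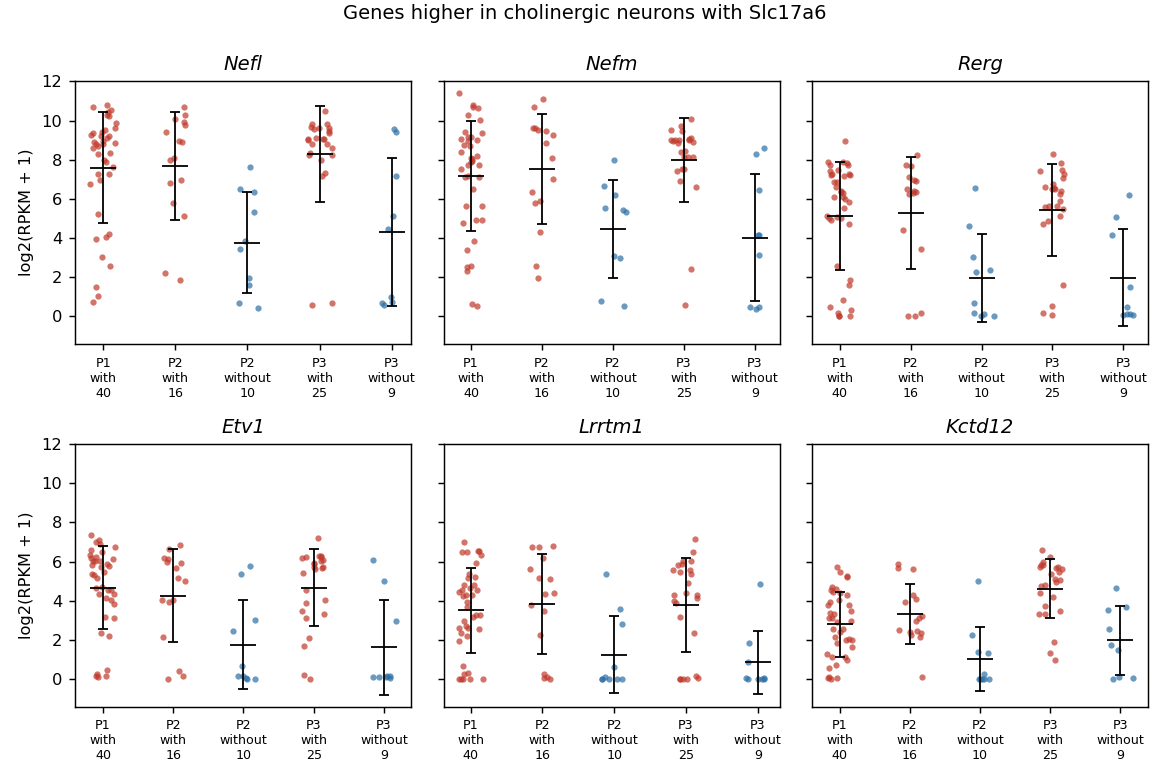
Log2(RPKM + 1) of 6 genes higher with Slc17a6, by plate (P1 to P3) and class, with the number of cells under each label. Points are cells, the short bar is the mean and the whiskers are 1 SD over cells. Cells with Slc17a6 (red) gather high in Nefl, Nefm and Rerg, and cells without it (blue) spread down to 0.

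The plate 1 cells gave values that took no part in the choice of genes. In its 40 cells with Slc17a6 the means were 7.60 ± 2.82 for Nefl, 7.16 ± 2.83 for Nefm, 5.15 ± 2.75 for Rerg, 4.67 ± 2.11 for Etv1 and 3.51 ± 2.15 for Lrrtm1 (SD over cells). The only plate 1 cell without Slc17a6 was not low in them, with 7.42, 7.53, 4.52, 5.34 and 4.00 in the same order. That cell, cell 18, had Slc17a6 at 0.72, near the class limit, and carried the smooth muscle, fibroblast and enteric glia lists. With a difference of 1 required on all 3 plates, only Kctd12 and Bdkrb2 of the 12 genes were called, where that 1 cell alone gave the value without Slc17a6, and the counts over all genes were 49 higher and 8 lower. Of the genes named by a rule, 16 of 29 called higher and 3 of 13 called lower had a plate 1 difference of the opposite sign, such as Fam89a (-1.51), Etv1 (-0.66) and Dmkn (2.44).

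Promoter sequence was searched because these genes differed together and Etv1 is an ETS factor. RefSeq promoters (GRCm38.p6, 250 bases before to 50 after a start site) were matched for 8 of the 12 higher genes (11 promoters) and 10 of the 12 lower genes (16 promoters). Nefl, Nefm, Rerg, Mir5130, Thy1 and Smpdl3a have no entry. The ETS motif CCGGAAG, searched on both strands, was in 0 of 11 and 1 of 16 promoters, against 8.86% of all 32851, and TATAAA was in 2 of 11 and 1 of 16, against 13.6%. The 4 promoters with a match, shown to place it, are from Etv1 (chr12:38783461-38783760, plus strand, 1 of its promoters), Klhl1 (chr14:96518985-96519284, minus strand), Tnfrsf1a (chr6:125349473-125349772, plus strand) and Ociad2 (chr5:73338898-73339197, minus strand). Capitals mark the motif, or its reverse complement where it lies on the opposite strand.
Etv1: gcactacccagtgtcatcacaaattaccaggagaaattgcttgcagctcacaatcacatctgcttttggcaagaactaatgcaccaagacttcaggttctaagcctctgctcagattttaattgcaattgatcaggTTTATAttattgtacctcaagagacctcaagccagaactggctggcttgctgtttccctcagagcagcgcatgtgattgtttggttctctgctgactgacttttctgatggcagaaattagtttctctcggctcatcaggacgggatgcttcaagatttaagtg
Klhl1: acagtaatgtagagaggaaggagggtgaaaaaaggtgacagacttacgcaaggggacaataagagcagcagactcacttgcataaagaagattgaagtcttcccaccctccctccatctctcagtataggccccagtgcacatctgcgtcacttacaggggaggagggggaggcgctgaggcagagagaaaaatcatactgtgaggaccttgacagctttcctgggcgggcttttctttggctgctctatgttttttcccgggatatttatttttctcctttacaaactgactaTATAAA
Tnfrsf1a: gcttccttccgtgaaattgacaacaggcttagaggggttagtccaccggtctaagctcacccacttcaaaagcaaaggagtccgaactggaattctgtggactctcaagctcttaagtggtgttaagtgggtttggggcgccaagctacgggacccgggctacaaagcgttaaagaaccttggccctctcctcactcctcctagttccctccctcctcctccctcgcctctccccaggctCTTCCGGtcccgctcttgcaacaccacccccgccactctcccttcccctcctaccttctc
Ociad2: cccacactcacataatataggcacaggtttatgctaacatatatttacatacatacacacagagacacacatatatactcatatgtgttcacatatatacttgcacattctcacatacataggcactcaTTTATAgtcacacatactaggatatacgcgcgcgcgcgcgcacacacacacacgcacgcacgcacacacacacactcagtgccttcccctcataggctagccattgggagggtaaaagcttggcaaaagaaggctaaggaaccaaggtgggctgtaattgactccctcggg
The matches of Etv1 and Ociad2 lie before the start site, both TATAAA on the opposite strand. The match began at base 45 after the start of Klhl1, and in Tnfrsf1a the ETS match began 10 bases before the start. A match is a run of letters and not evidence of binding.

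Fewer genes were lower in cells with Slc17a6, and they included several membrane proteins. Thy1, a surface glycoprotein of mature axons, had lowest, median and highest values of 0, 2.59 and 6.76 with Slc17a6 and 0, 4.67 and 8.36 without on plate 2, and of 0, 0.48 and 6.88 against 1.43, 3.91 and 8.98 on plate 3. The classes overlapped, and on plate 3 no cell without Slc17a6 was at 0. The mean differences were -2.35 (2.02 ± 2.02 against 4.36 ± 2.66) and -2.62 (2.30 ± 2.57 against 4.92 ± 2.62). Pdpn, the membrane glycoprotein podoplanin, differed by -2.44 and -1.80. Cd44, the hyaluronan receptor, differed by -1.36 and -1.49.

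Pmp22, a membrane protein best known from the myelin of glia, differed by -1.27 and -3.68. The list of 8 enteric glia genes was carried by no member of plates 2 and 3. Its summed level ran from 0.03 to 5.70 with Slc17a6 and from 0 to 5.49 without on plate 2, and from 0 to 6.12 and from 0.04 to 6.45 on plate 3. Dmkn, a secreted protein named from skin, differed by -1.50 and -3.18, and in neurons with Chat below 2 its means were 0.54 and 0.52. Tnfrsf1a, a receptor for tumour necrosis factor, differed by -1.32 and -2.33.

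Of the rest, Endog, a mitochondrial nuclease, differed by -1.25 and -1.23, Psen2, the gamma-secretase subunit presenilin 2, by -1.23 and -1.32, and Ociad2 by -1.22 and -1.41. Ivd, an enzyme of leucine breakdown, differed by -1.21 and -1.15, Smpdl3a by -1.52 and -1.03, and Ehd2, a protein of membrane caveolae, by -1.0 and -1.33. These calls rested on fewer cells. Only Thy1, Pdpn, Tnfrsf1a and Endog kept their call with any 1 cell left out, and Dmkn was not called without cell 22, 30 or 61 of plate 2. Pmp22 was not called without cell 30, 50 or 61 of plate 2, and Cd44 not without cell 5. Ehd2 was not called with each near-identical pair counted once. Without the cells that carried a non-neuronal list, Cd44, Tnfrsf1a, Ociad2 and Smpdl3a were not called. With ratios of mean RPKM, Pdpn, Dmkn, Tnfrsf1a, Endog, Psen2 and Ehd2 were not. Without Nos1 cells, Cd44, Tnfrsf1a, Ivd, Smpdl3a and Ehd2 were not.

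**Figure D4:**
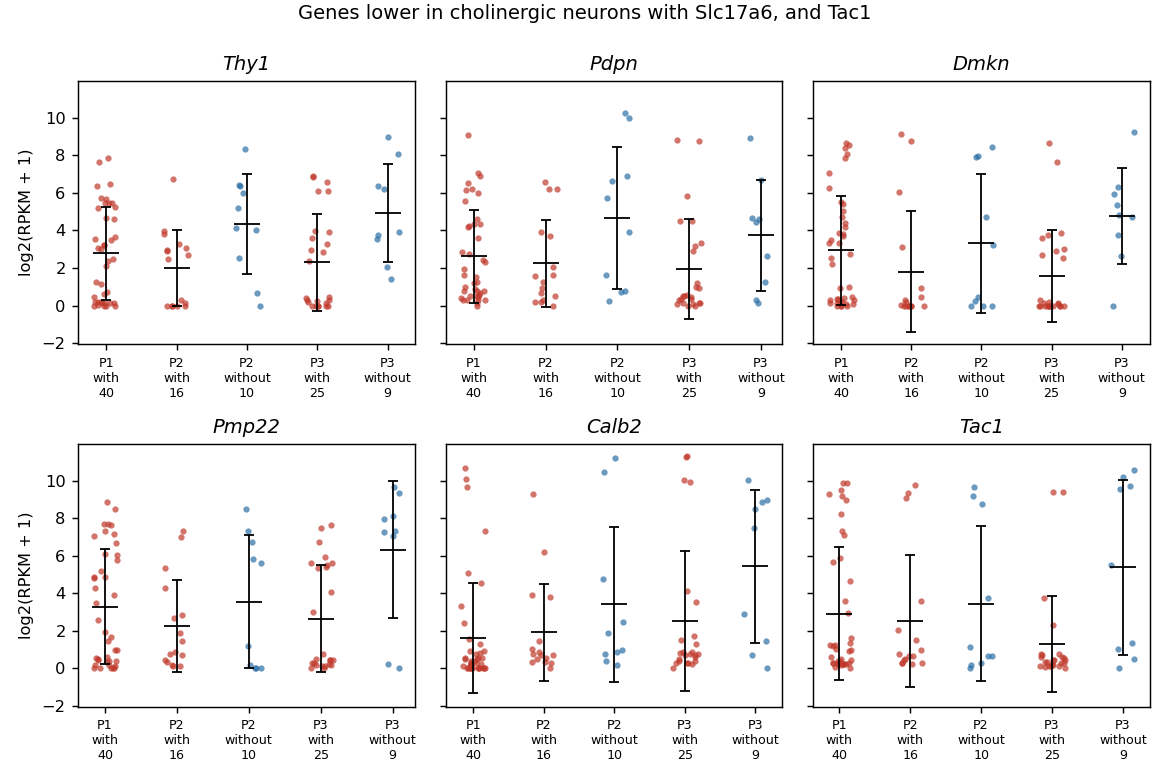
Log2(RPKM + 1) of 5 genes lower with Slc17a6 and of Tac1, by plate (P1 to P3) and class, with the number of cells under each label. Points are cells, the short bar is the mean and the whiskers are 1 SD over cells, which can reach below 0. Calb2 and Tac1 fall into high and low cells in both classes, with most cells without Slc17a6 on plate 3 high in Calb2.

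Among 5 tested markers of excitatory motor neurons, 4 had negative differences on both plates and 1, Penk, had positive ones. Over all genes tested, 12.7% had negative and 47.6% had positive differences on both plates. Calb2 was lower, with means of 1.91 ± 2.60 against 3.40 ± 4.15 on plate 2 and of 2.53 ± 3.74 against 5.43 ± 4.08 on plate 3, and differences of -1.49 and -2.90. It stood at 2 or more in 4 of 16 cells with Slc17a6 and 4 of 10 without on plate 2, and in 6 of 25 and 6 of 9 on plate 3. Its call ended without cell 22 or cell 30 of plate 2 (which left a plate 2 difference as small as -0.62), with medians, with ratios of mean RPKM, and with Slc17a6 at 3 or more against 0. Tac1 was not called. Its lowest, median and highest values were 0.20, 0.71 and 9.75 against 0, 0.89 and 9.66 on plate 2, where the difference was -0.90, and 0, 0.43 and 9.38 against 0, 5.49 and 10.58 on plate 3, where it was -4.09. Both transcripts had high and low cells in both classes, with a few cells in between, and the classes overlapped.

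Penk, the enkephalin precursor, went the other way and was higher, by 1.76 and 2.03. Its medians were high in both classes, at 11.59 against 10.69 on plate 2 and 12.83 against 11.84 on plate 3. Of the 9 genes of the excitatory motor list, 5 were tested, 1 was higher (Penk) and 1 lower (Calb2), with a list median of -0.90 and -1.62 beside 0.32 and 0.21 over all genes. Of the 9 inhibitory motor neuron genes, 4 were tested and 1, Cartpt, was higher. Ass1, the enzyme that recycles citrulline for nitric oxide synthesis, differed by -0.50 and -0.20. Nos1 stood at 2 or more in 2 of 16 and 2 of 10 cells on plate 2, and in 6 of 25 and 2 of 9 on plate 3, below the filter for testing.

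Gal, the galanin precursor, had means of 4.25 against 3.77 and of 3.47 against 3.27. It was at 2 or more in every member of plate 2, against means of 9.58 and 7.38 in neurons with Chat below 2, so that a value above 2 does not mark a galanin neuron on that plate. Of the intrinsic sensory neuron list 2 of 12 genes were tested and none was called. Htr3a, a serotonin-gated channel subunit in that list, differed by 0.42 and 0.81, with 7 of 16 against 3 of 10 cells at 2 or more on plate 2 and 11 of 25 against 3 of 9 on plate 3. The interneuron list had 4 of 10 genes tested and 1 higher, Ntng1.

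The genes higher with Slc17a6 were counted in each cell, in a split by Tac1 and Calb2 made after the values were seen. They were chosen for being high with and low without Slc17a6 on plates 2 and 3. Each also had to reach 2 in at least 50% of cells with Slc17a6 on each of these plates. High counts with Slc17a6 and low counts without it are therefore built in there. Of the 81 cells with Slc17a6, 46 had neither Tac1 nor Calb2 at 2 or more. Each of them held at least 8 of 11 genes at 2 or more, where the 11 are the 12 named by size less Mir5130, and the median was 11. The 35 cells with Slc17a6 and Tac1 or Calb2 held from 1 to 11 of them, with a median of 9. In plate 1 cells with Slc17a6, which took no part in the choice, 20 with neither marker held 8 to 11 (median 11). The 20 with a marker held 1 to 11 (median 8). Of the 20 cells without Slc17a6, the 14 with Tac1 or Calb2 held from 0 to 9, with a median of 3.5, and the 6 with neither held from 1 to 10, with a median of 5.5. With each near-identical pair counted once, the median was 11 in 44 cells with Slc17a6 and neither marker and 7 in 31 with a marker.

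Nefl was set out in the same way by plate. On plate 2 its median was 9.40 in 9 cells with Slc17a6 and neither marker, 7.98 in 7 with Slc17a6 and a marker, 6.42 in 4 without Slc17a6 and neither, and 2.70 in 6 without Slc17a6 and with a marker. On plate 3 these were 9.36 in 17 cells, 8.11 in 8, 4.48 in 1 and 3.05 in 8. That 1 cell is cell 14, with 49.3% mitochondrial reads. On plate 1, which took no part in choosing the genes, the medians with Slc17a6 were 9.17 in 20 cells with neither marker and 7.10 in 20 with a marker. Without cells holding Tac1, all 12 higher genes were still called, but of the 12 lower genes only Thy1 and Smpdl3a were. That comparison has 6 and 4 cells without Slc17a6 on plates 2 and 3. The 4 include cell 14 and are fewer than the 5 required elsewhere. Its counts over all genes were 1246 higher and 37 lower. The median difference over all genes was 0.53 and 0.59, beside 0.32 and 0.21 with Tac1 cells kept. The part of that shift in the kept calls was not tested, and the 12 genes were chosen for size in cells that include these.

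The 6 cells between the limits were not used to choose any gene. Of these, 5 held Tac1 at 2 or more, and those 5 had from 3 to 5 of the 11 genes, with Rerg between 0 and 0.83 and Etv1 between 0 and 0.60. Their Ano5 ran from 1.09 to 5.29 with a median of 2.70, within the range of cells with Slc17a6. It also overlapped cells without Slc17a6, which reached 4.10 on plate 2 and 3.84 on plate 3. The sixth cell, from plate 3, had neither marker, held 10 of 11 genes and had Nefl at 9.24. Dmkn in the 6 cells had a median of 8.09 and Pmp22 of 8.40.

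**Figure D5:**
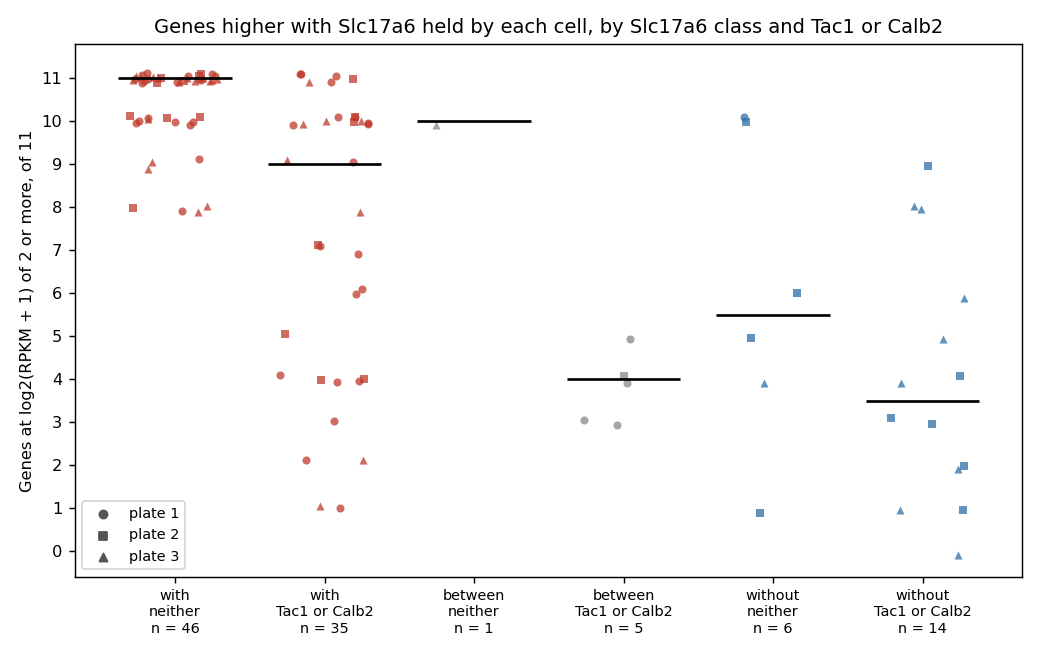
Number of the 11 genes at log2(RPKM + 1) of 2 or more in each cholinergic neuron (vertical axis), by Slc17a6 class and by whether Tac1 or Calb2 stood at 2 or more. Points are cells, jittered slightly, their shape gives the plate and bars are medians. All 46 cells with Slc17a6 and neither marker hold at least 8 genes, and the other groups reach down to 5 or fewer except the 1 cell in between with neither.

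Over 23 lists of gene functions with 393 genes, 189 were tested, 29 were higher and 1 was lower, where 2.89% and 0.247% of all genes tested were. The lists were chosen with earlier results known, so these counts are a description. Several genes below stand in more than 1 list. Of the glutamate genes, 8 of 13 were tested and none was called. Slc38a2, a glutamine transporter, differed by 0.82 and 1.49, and Glul, glutamine synthetase, by -0.55 and -0.97. Slc17a7 reached 2 in no member of either class on any plate, and Slc17a8 in 1 cell without Slc17a6 on plate 2. Of the ionotropic glutamate receptors 6 of 18 were tested and none was called, with Gria1, an AMPA receptor subunit, at 0.82 and 1.85. Grm7, the only metabotropic receptor tested, differed by -0.58 and -1.02.

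Of 7 genes that handle acetylcholine, all were tested and only Prima1, the membrane anchor of acetylcholinesterase, was higher (1.33 and 1.72). Bche, butyrylcholinesterase, differed by 1.18 and 0.94. Of 15 acetylcholine receptors, 7 were tested and 2 were higher, the nicotinic subunit Chrna5 (1.59 and 1.41) and the muscarinic receptor Chrm1 (1.82 and 1.10).

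Neuropeptide precursors had 4 of 12 tested genes higher. Adcyap1, the PACAP precursor, had lowest, median and highest values of 0, 6.14 and 9.89 with Slc17a6 and 0, 3.26 and 9.04 without on plate 2, and of 0.11, 6.75 and 9.71 against 0.12, 0.82 and 10.01 on plate 3. Its classes overlapped fully in range, and its differences were 2.02 and 3.12. In neurons with Chat below 2 its means were 0.73 and 1.31. Cartpt, the CART precursor, differed by 2.07 and 1.79. Its means in neurons with Chat below 2 were 8.51 and 5.94, beside 7.05 and 7.96 in cells with Slc17a6. Nxph2, a secreted neurexin ligand, differed by 1.77 and 1.39. Vip differed by 0.61 and 0.01.

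Among receptors for peptides, 3 of 5 tested genes were higher, Bdkrb2, Sstr5 (1.39 and 2.00) and the neuropeptide Y receptor Npy1r (2.34 and 2.01). Of the serotonin receptors 1 of 5 was higher, Htr4 (1.54 and 1.26). None of 4 purinergic receptors was called, with the ATP-gated channel P2rx2 at 0.31 and 2.88, and none of 2 GABA receptors, with Gabbr1 at 0.47 and 0.01. Of the neurotrophic receptors 2 of 7 were higher, Ret, the GDNF signalling receptor (1.67 and 1.23), and Ngfr, the p75 neurotrophin receptor (1.56 and 1.66). Neurons with Chat below 2 held both, with means of 3.62 and 4.52 for Ret and 4.09 and 4.38 for Ngfr. Gucy1b3, a subunit of the nitric oxide receptor, was higher (1.22 and 1.95), the only call of 5 tested genes of its list. Ret was not called without cell 14 or cell 67 of plate 3, and Gucy1b3 not without cell 5 or cell 6 of plate 2.

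Of the potassium channels, 3 of 22 tested were higher, beside 2.89% of all genes, Kcna5 (2.20 and 2.09), the background channel Kcnk10 (2.00 and 2.03) and the calcium-activated channel Kcnn3 (1.19 and 1.77). None of 6 sodium, 9 calcium and HCN, or 8 mechanosensitive, TRP and acid-sensing channels was called. Scn9a differed by 1.45 and 0.53, and Trpv2 by 0.57 and 0.58.

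Transcription factors had 4 of 13 tested genes higher, among them Etv1, Tbx3 (1.41 and 2.87) and Zfhx3 (1.56 and 1.40). Adhesion and guidance genes had 4 of 13, Lrrtm1, Ntng1, the netrin-G1 membrane protein (2.00 and 2.30), Cntn5 (1.23 and 1.36) and Nrp1 (1.10 and 1.24). The vesicle release list had 2 of 20, the synaptotagmins Syt9 (1.12 and 1.86) and Syt4 (1.52 and 1.10). None of 11 injury and regrowth genes was called, with Ecel1 at 0.54 and 3.35 and Stmn4 at 1.32 and just under 1 on plate 3. None of 7 immediate early genes was called, with Egr1 at -1.99 and -0.63.

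Many of these list calls rested on few cells. Without cells above 10% mitochondrial reads, Prima1, Chrm1, Gucy1b3, Ret, Syt4 and Nrp1 were not called. Without the cells that carried a non-neuronal list, Prima1, Chrm1, Gucy1b3, Htr4, Kcna5, Ret, Syt9, Syt4, Cntn5 and Nrp1 were not. Among Y-only cells, Chrna5, Chrm1, Gucy1b3, Ret, Syt4, Nxph2 and Kcnn3 were not. On reads thinned to 1000000 per cell, Prima1, Gucy1b3 and Htr4 were not. Thinning also left out cells with fewer reads, so 15 and 8 cells with and without Slc17a6 remained on plate 2, and 24 and 9 on plate 3. Cells 5 and 6 of plate 2 were among those left out, and leaving out cell 6 alone ended the calls of Prima1 and Gucy1b3. With each near-identical pair counted once Syt9 was not called. Leaving out 1 cell ended the call of Prima1, Chrm1 and Tbx3 for 3 cells each, of Syt9 for 6, of Syt4 for 4, of Kcnn3 for 2 and of Nrp1 for 10. Adcyap1, Npy1r, Kcnk10, Ngfr, Ntng1, Cartpt, Penk, Sstr5 and Zfhx3 kept their call in all of these alternatives, but not in all others. With ratios of mean RPKM, Adcyap1, Ngfr, Cartpt, Penk and Zfhx3 were not called, and with medians Penk and Sstr5 were not. Ngfr was not called without Tac1 cells, Penk not without Nos1 cells, and Zfhx3 not with Slc17a6 at 3 or more against 0. None of them was called with all 3 plates required.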

How the data were processed

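The deposited table holds log2(RPKM + 1) values made by the authors, 1 column per cell and 49492 gene rows. The mm10 build is named per the submitters' processing notes. For aligner, counting tool and strand setting, no name or value is given in the sources used here. That the log has base 2 with 1 added follows from the values. Library preparation used no molecular identifiers. The design named no count test, since the labels name no animal or culture and each plate is 1 sample. Means and SDs are over cells of 1 plate, and SDs measure only the spread between cells that may share animals. No doublet caller was run on hand-picked cells.

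Members and lists were chosen with earlier results of these data known. Genes were tested at 2 or more in at least 20% of members on plates with at least 5 cells of each class. Named by size were, per direction, the 12 genes with the largest smallest-plate difference that reached 2 in at least 50% of the higher class on each plate. Mitochondrial, ribosomal, Rik, Gm and pseudogene rows and the genes of the rule were left out. In each function and neuron type list the 2 tested members with the largest mean difference of like sign were named, beside Nos1, Slc17a7, Slc17a8, Slc18a3, Slc5a7, Tac1, Penk, Gal, Vip, Calb2, Nefm and Htr3a. Other genes in the text, such as Nefh, Ina, Sstr5, Nxph2, Kcnn3, Zfhx3, Cntn5, Nrp1 and Islr, were named after their values were seen. Some genes that the rule names are not reported here. A cell carried a list where at least 50% of its members stood at 2 or more.

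Whole reads were recovered for depth and thinning with GENCODE M21 exon lengths. All 2375655 values above 0 came out whole within 0.001, for 31317 genes with annotated lengths and 6318 with the smallest length that made their values whole. A count test over cells would treat cells as replicates and was not run. Scripts were tested on simulated data. Python 3.11.15, numpy 2.4.6, pandas 2.3.3 and scipy 1.17.1 were used. Alternatives changed the scale, pseudocount, filter, scaling, class and Chat limits, depth, plates and cells. Some were added after seeing the data. They left out cells above 10% mitochondrial reads, kept Y-only cells, left out Tac1 cells or subtracted the median difference. Another added then counted near-identical pairs of cells once. Such pairs had a Pearson correlation over 0.9 across genes at 2 or more in at least 20% of all cells.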

Additional observations from a re-analysis of the deposited data

Results flagged for a closer look

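Some neurons outside the comparison also held Slc17a6. Of 42 neurons with Chat below 2, 5 had Slc17a6 at 2 or more, on plates 1 (3 cells) and 2 (2 cells), while a count of 0 among 42 would allow a share of up to 7.14%. These cells had Slc17a6 values of 3.49, 4.07, 5.59, 4.31 and 5.83. Chat was 1.80 and 1.63 in 2 of them, just under the limit, and 0 in the other 3. Of those 3, cell 6 of plate 1 and cell 33 of plate 2 had only 687284 and 452928 reads. Whether their Chat transcripts were missed at that depth was not tested. Slc18a3, the vesicular acetylcholine transporter, was between 4.36 and 6.77 in 4 of the 5 and 0.26 in the remaining cell, which had 8547939 reads. Nos1 reached 2 in 2 of the 5, at 2.17 and 4.19. No difference between the 2 plates was tested.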

How the results depend on the processing

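Counts are given here as shares of the genes tested, higher and then lower, against 2.89% and 0.247% as reported. They were 10.1% and 1.02% with a pseudocount of 0.1, 4.54% and 0.868% with medians, 1.66% and 0.959% without cells that carry a non-neuronal list, 0.417% and 0.0681% with all 3 plates required, and 5.27% and 0.911% with plates pooled. With alternatives chosen after seeing the data they were 1.9% and 0.525% without cells over 10% mitochondrial, 1.31% and 0.74% after subtracting the median difference, and 10.7% higher without Tac1 cells, and 3% and 0.256% with each near-identical pair of cells counted once. The lower count alone moved by over 1.5 times with ratios of mean RPKM (0.655%), genes at 2 or more in 50% of members (0.0622%, or 5 genes), Slc17a6 at 3 or more against 0 (0.538%), reads thinned to 1000000 per cell (0.381%), and Y-only cells (0.913%). Thinning also left out the cells with fewer than 1000000 reads. Other alternatives changed the counts by under 1.5 times, with 354 and 41 of 31625 genes where no filter was used. Leaving out each cell without Slc17a6 gave 1.98 to 3.65% higher (232 to 425 genes) and 0.184 to 0.358% lower (22 to 43 genes), the lowest share of higher genes without cell 14 of plate 3. Leaving out each cell with Slc17a6 gave 323 to 382 and 26 to 40 genes. The 12 genes named as higher by size kept the call in every alternative except 2, the 50% filter, where Ano5 and Mir5130 were not tested, and all 3 plates, where Kctd12 and Bdkrb2 kept it. These 12 were chosen for the largest differences in the same cells, so kept calls on plates 2 and 3 are largely built in. Of the 42 genes named by a rule and called, the mean difference over plates changed sign for 1, Ngfr at -0.12 with all 3 plates. On plate 1 alone, where 1 cell gave the value without Slc17a6, 19 of the 42 had the opposite sign. The cause was not tested. No paired analysis was possible because replicate numbers in the labels only number cells within a plate. The 9 and 10 cells without Slc17a6 limit every comparison.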

Other observations

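The 4 members of the Id family, which encode inhibitors of basic helix-loop-helix transcription factors, were called higher in cells with Slc17a6, as were 2.89% of all genes tested. They were noticed after their values were seen, so the count is a description. Id1 had means of 5.67 ± 1.87 against 3.96 ± 2.84 on plate 2 and of 5.99 ± 2.04 against 3.37 ± 2.78 on plate 3 (SD over cells). Its differences were 1.71 and 2.62. Id2 differed by 1.28 and 1.58, Id3 by 1.24 and 2.47 and Id4 by 1.36 and 3.64. All 4 were also called without cells above 10% mitochondrial reads. Leaving out 1 cell ended the call of Id2 for 2 cells, of Id3 for 3 and of Id4 for 1, and without Tac1 cells only Id2 was called. With ratios of mean RPKM none of the 4 was called. With the median difference of all genes subtracted, Id2 and Id3 were not called, at 0.96 and 0.92 on plate 2. They were also not called with Slc17a6 at 3 or more against 0. Id2 was not called with medians, and only Id4 was called with all 3 plates required. Sox4, a transcription factor of developing neurons, differed by 2.49 and 2.06.

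Glp1r, the GLP-1 receptor, was among the genes called higher outside the lists, was picked after its values were seen, and differed by 2.27 and 2.22. It kept the call with any 1 cell left out. Syt6, another synaptotagmin, was too rare for testing and differed by -2.51 and -2.03.

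Within 500000 bases of Slc17a6, Ano5 was the only protein-coding gene called. Gas2 differed by 0.73 and 1.48, Fancf by -0.01 and 1.96 and Svip by -0.17 and -0.20, at 190896, 189458 and 326052 bases from Slc17a6.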
